A study of Homo sapiens with 6 samples.

Results

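The 10 genes described here encode the receptors of the HER (ERBB) family and proteins that hold those receptors in check or cut them at the cell surface. They were taken by gene symbol from the count tables of SKBR3, a HER2-positive human breast cancer cell line of mammary epithelium, in which 60612 genes were listed and 17854 passed the filter on low counts. The group has 4 receptors (ERBB2, which encodes HER2, and ERBB3, ERBB4 and EGFR), 2 proteins that restrain them (ERRFI1 and LRIG1), 2 ubiquitin ligases (CBL and CBLB) and 2 membrane proteases called sheddases (ADAM10 and ADAM17). All 10 genes were found and all 10 passed the filter, although ERBB4 passed it through its untreated libraries alone. RNA was sequenced from SKBR3 cells treated with trastuzumab, an antibody against HER2, at rising concentrations over 30 weeks (3 libraries), and from SKBR3 cells with no treatment (3 libraries). Both groups are 1 cell line, and the labels state neither whether the drug was present at harvest nor whether replicates came from separate cultures. The p-values below therefore rest on the spread among these libraries, part of which may be technical. If the treated libraries came from 1 treated culture, the p-values do not measure the spread between such cultures. Effects of the drug and of time in culture were not separated here, and "under trastuzumab" below names the treated group.

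HER receptors are tyrosine kinases that pair on the cell surface and phosphorylate each other. HER2 binds no ligand of its own and acts as the favoured partner, while HER3, the product of ERBB3, has little kinase activity and relies on its partners. Signalling is limited by ERRFI1, which binds active kinase domains, by LRIG1, a membrane protein that lowers receptor levels, and by CBL proteins, which tag receptors with ubiquitin for degradation. Sheddases free most receptor ligands from the membrane, and ADAM10 is known to release the outer part of HER2, to which trastuzumab binds.

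The libraries held 71.0 to 82.9 M counts in the trastuzumab group and 71.8 to 72.4 M in the untreated group. Levels are given as CPM, counts scaled by TMM-adjusted library size, and the limit that a count of 0 allows (3 counts, counting error only) lay between 0.0372 and 0.0428 CPM. A gene was called changed when edgeR's quasi-likelihood test gave a Benjamini-Hochberg adjusted p below 0.05 over all tested genes. By that rule 49.3% of tested genes changed, 23.9% higher and 25.4% lower under trastuzumab. Fold changes followed base composition, with a median log2 fold change of -0.47 in the 20% of genes with the lowest transcript GC content and 0.36 in the 20% with the highest. A second fit that removes a trend on GC content and exonic length from each library, called the corrected fit here, is given beside the first, and 38.8% of its genes changed. The 5 luminal epithelial markers summed to 12235 to 13537 CPM in trastuzumab and 12083 to 13518 CPM in untreated libraries. Within that sum KRT7 and KRT19 were called higher under trastuzumab (log2 fold change 0.40 and 0.21). KRT8 and EPCAM were called lower (-0.17 and -0.19), and KRT18 was not called (-0.14). In the corrected fit KRT7 was called higher (0.11), and KRT8, KRT18, KRT19 and EPCAM lower (-0.33, -0.41, -0.12 and -0.14). CDH1, which SKBR3 cells lack, stood at no more than 0.261 CPM, and the immune markers PTPRC and CD3E and the endothelial marker PECAM1 at no more than 0.31 CPM. Summed over each list, 4 immune markers came to 42.7 to 48.5 CPM in trastuzumab and 14.4 to 17.2 CPM in untreated libraries, nearly all of it CD68, and 3 endothelial markers to 79.0 to 85.9 and 28.5 to 31.7 CPM in the same groups, nearly all of it CDH5. The 5 fibroblast markers summed to 6.01 to 10.001 CPM in trastuzumab and 8.82 to 17.4 CPM in untreated libraries, and the 3 basal markers to 0.928 to 17.3 and 1.60 to 2.75 CPM. The part of these markers in the results below was not tested.

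Under trastuzumab, ERBB2, ERBB3 and LRIG1 rose, EGFR, CBL and ADAM10 fell, and ERBB4, ERRFI1, CBLB and ADAM17 did not pass the test. The share of genes called, 6 of 10, stands beside 49.3% of all tested genes, which include scarce genes that were called less often. In a fit kept to genes averaging 1 CPM or above, 8578 of 13212 were called, and of the 10 only ERBB4 was left out. No excess of calls among the 10 is therefore read from these shares. The median log2 fold change of the 10 was -0.12, beside -0.0057 over all tested genes. The trastuzumab and untreated libraries did not overlap for the 6 called genes, 3 higher and 3 lower, where 57.5% of all tested genes had groups that did not overlap (28.3% higher and 29.2% lower). ERBB4 is left out of this count, since it passed the filter through the untreated libraries and its nearest libraries, at 0.149 and 0.162 CPM, both had 12 counts. In the corrected fit 8 of the 10 had the same call, of which ERRFI1 and CBLB, called in neither fit, changed sign, while ADAM10 lost its call and ADAM17 was called higher, which makes 4 higher (beside 19.9% of all genes) and 2 lower (beside 18.9%). All of these are amounts of RNA in bulk cultures, in which fewer cells that express a gene and less RNA per cell cannot be told apart.

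**Figure D1:**
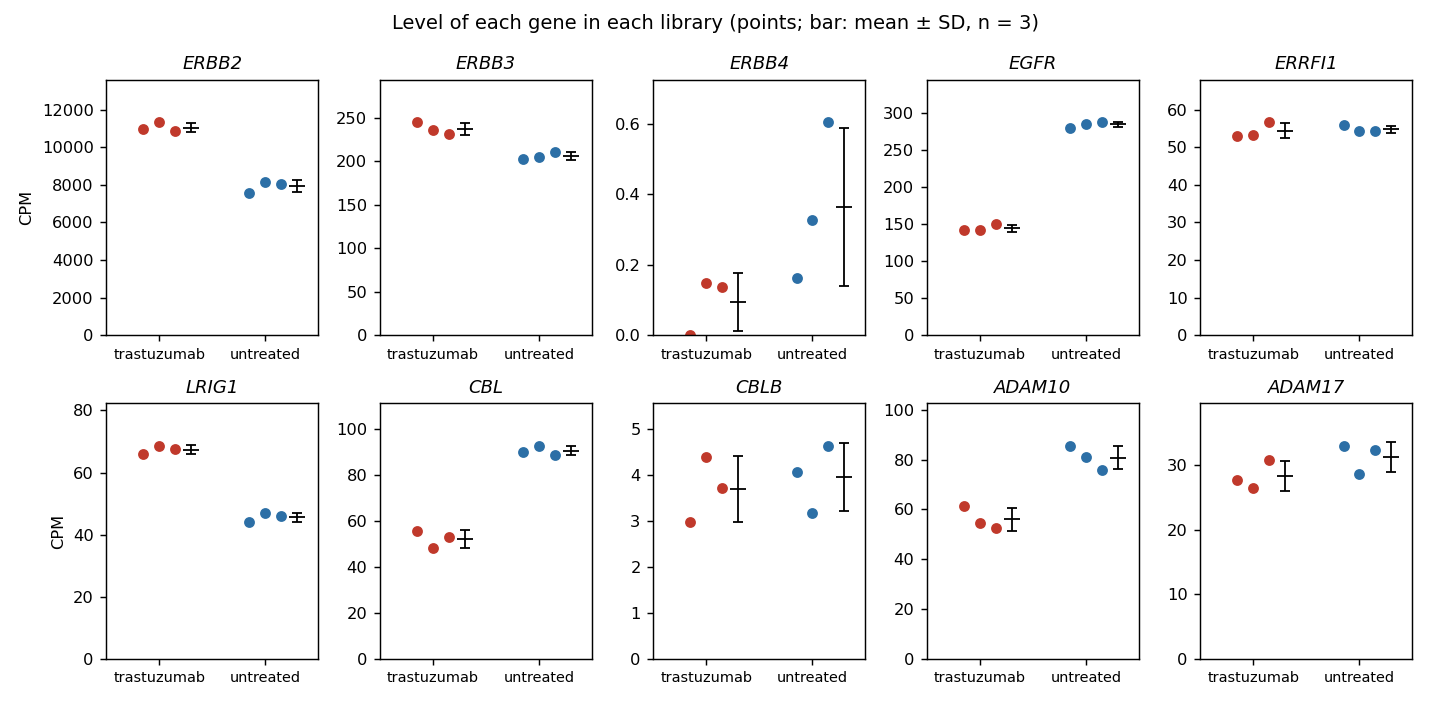
CPM of each of the 10 genes (vertical axes from 0, on scales of their own) in the 3 trastuzumab libraries (red, left) and the 3 untreated libraries (blue, right), with the mean and SD beside the points. The groups are apart for ERBB2, ERBB3 and LRIG1 (higher under trastuzumab) and for EGFR, CBL and ADAM10 (lower), and they overlap for ERRFI1, CBLB and ADAM17. The nearest ERBB4 libraries of the 2 groups both had 12 counts.

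ERBB2 (ENSG00000141736, chromosome 17, 39687914 to 39730426 on hg38) was among the most abundant RNAs of these cells. Its levels were 10951, 11333 and 10865 CPM in trastuzumab replicates 1 to 3, against 7562, 8148 and 8066 CPM in untreated replicates 1 to 3. Every trastuzumab library lay above every untreated one, and ERBB2 rose 1.39-fold (log2 fold change 0.48 ± 0.039 SE, edgeR adjusted p = 4.06e-08). ERBB2 made up 1.08, 1.10 and 1.07% of all counts in the trastuzumab libraries, against 0.773, 0.836 and 0.813% in the untreated libraries. By FPKM, the authors' measure per gene length, it ranked 26 to 27 among 33686 listed genes in trastuzumab libraries and 38 to 41 in untreated libraries. Its transcripts are 59.5% GC, and in the 20% of genes with the highest content the median log2 fold change was 0.36 and 49.6% were called higher. The rise was 0.37 ± 0.027 in the corrected fit and 0.21 with the trend on GC content alone removed, and it was called in both. The locus overlaps MIEN1 (664 CPM under trastuzumab and 476 CPM in untreated libraries) and PGAP3 (330 and 186 CPM) on the other strand. The strand setting of the counting is not given in the sources used here. Whether reads of such neighbours entered the count of a gene was not tested.

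ERBB3 (ENSG00000065361, chromosome 12, 56076799 to 56103505), whose product carries most of the PI3K docking sites of HER2 pairs, rose less. It stood at 245, 236 and 231 CPM in trastuzumab replicates 1 to 3, against 203, 204 and 211 CPM in untreated replicates. The groups were separate but close, and the rise was 1.15-fold (log2 fold change 0.20 ± 0.044, edgeR adjusted p = 0.000987). It was 0.24 in the corrected fit and 0.11 with GC content alone removed, and was called in both.

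EGFR (ENSG00000146648, chromosome 7, 55019021 to 55211628), the receptor of EGF and partner of HER2, fell. Its levels were 141, 142 and 150 CPM under trastuzumab, against 280, 286 and 287 CPM in untreated libraries. The spread within either group was a few percent (CV of 3.23% in trastuzumab and 1.29% in untreated libraries), and the log2 fold change was -0.98 ± 0.044 (edgeR adjusted p = 6.87e-11). That lay at the 6.47th percentile of the log2 fold changes of all tested genes. At 51.2% GC the gene lies in the middle of 5 equal groups by GC content, whose median log2 fold change was -0.0036, and the corrected value was -0.86.

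ERBB4 (ENSG00000178568, chromosome 2, 211375717 to 212538841), a kinase-active receptor for neuregulins, was close to the limit of detection. It had 0, 12 and 11 counts in the trastuzumab libraries, against 12, 24 and 44 counts in the untreated libraries. These are 0, 0.149 and 0.137 CPM under trastuzumab and 0.162, 0.326 and 0.605 CPM in untreated libraries. The log2 fold change of -1.90 ± 0.92 did not pass the test (edgeR adjusted p = 0.103), its 95% interval ran from -3.85 to 0.059, and alternatives on counts gave -2.50 to -1.33. On log2(FPKM + 1) the difference was -0.024, a value held near 0 because the added 1 far exceeds the 0 to 0.04 FPKM of ERBB4. The untreated libraries spread widely (CV of 61.4%), and the interval includes 0.

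The regions before a listed transcription start of ERBB2 and of EGFR are shown because the 2 receptors moved in opposite directions. They are the 250 bases upstream of the start in RefSeq's table (GRCh38.p14), on the plus strand, chr17:39687844-39688093 for ERBB2 and chr7:55018767-55019016 for EGFR. RefSeq places the ERBB2 start further downstream than the annotation behind the gene positions given here, so 180 of the 250 bases of that window lie inside the gene as annotated there. Capitals mark a GC box (GGGCGG or its reverse complement CCGCCC) or a CCAAT box (CCAAT or ATTGG).
ERBB2: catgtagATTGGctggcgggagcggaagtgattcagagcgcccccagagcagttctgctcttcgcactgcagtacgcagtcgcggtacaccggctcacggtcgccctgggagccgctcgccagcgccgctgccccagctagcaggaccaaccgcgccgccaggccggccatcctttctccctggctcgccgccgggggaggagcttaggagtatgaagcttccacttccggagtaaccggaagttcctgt
EGFR: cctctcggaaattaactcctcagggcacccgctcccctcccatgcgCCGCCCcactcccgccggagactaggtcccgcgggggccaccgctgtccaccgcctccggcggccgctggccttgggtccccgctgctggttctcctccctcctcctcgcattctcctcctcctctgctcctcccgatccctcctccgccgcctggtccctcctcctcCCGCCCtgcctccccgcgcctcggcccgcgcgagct
The ERBB2 window has 1 CCAAT box, as ATTGG, and no GC box. Only 1 start was listed there for ERBB2, and whether these cells use it or another start was not tested. This start lies at the outer end of the annotated gene, and starts further inside the gene were not examined. PGAP3 overlaps ERBB2 on the other strand, and this window and its CCAAT box may be PGAP3 sequence, which was not examined. The window is therefore not to be read as the promoter that drives ERBB2 in these cells. The EGFR window has 2 GC boxes, both as CCGCCC, and no CCAAT box, and neither has a TATA box (TATAAA or TTTATA). Of 34943 such windows, 42.5% hold a GC box, 32.0% a CCAAT box and 10.8% a TATA box. GC content was 65.6% in the ERBB2 window and 73.6% in the EGFR window. The table matched 8 of the 10 genes, all but ERBB3 and CBL. GC content was 75.6% in the window of ADAM17, 75.2% in ERRFI1, 68.4% in ADAM10, 66.8% in LRIG1, 57.2% in ERBB4 and 50% in CBLB. Between 39 and 250 bases of these windows lie inside the annotated gene, other than for ERRFI1, whose window does not overlap it. No binding or chromatin measurement was analysed here, so the letters describe the windows only.

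Levels per length, from the authors' FPKM values, showed how the balance between receptors shifted. The summed FPKM of the 4 receptors was 952 ± 19.7 under trastuzumab and 733 ± 25.7 in untreated libraries (SD, n = 3 each). ERBB2 made up 96.5% ± 0.102 of that sum under trastuzumab and 94.3% ± 0.166 in untreated libraries. EGFR made up 1.04% ± 0.0504 under trastuzumab and 2.79% ± 0.0754 in untreated libraries, and ERBB3 2.42% ± 0.0876 under trastuzumab and 2.86% ± 0.094 in untreated libraries. ERBB3 thus held a smaller share of receptor RNA although its own level was higher. ERBB4 was listed at 0 to 0.01 FPKM under trastuzumab and 0.01 to 0.04 FPKM in untreated libraries. ERBB2 alone stood at 919 ± 19.8 FPKM under trastuzumab and 692 ± 25.4 FPKM in untreated libraries.

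The order of the 10 genes by FPKM differed between the groups at 2 places. ERBB2 and ERBB3 led in both groups, and ADAM10, ADAM17, CBLB and ERBB4 closed the order in both. Under trastuzumab ERRFI1 (10.9 to 11.6 FPKM) lay above EGFR (9.71 to 10.3 FPKM), whereas EGFR (20.3 to 20.7 FPKM) lay above ERRFI1 (11.6 to 12.1 FPKM) in untreated libraries. LRIG1 (8.05 to 8.34 FPKM) lay above CBL (3.50 to 4.07 FPKM) under trastuzumab, whereas CBL (6.73 to 7.14 FPKM) lay above LRIG1 (5.66 to 6.03 FPKM) in untreated libraries. No neighbours in either order overlapped in range, and the closest pair was ERBB3 (20.8 to 21.2 FPKM) and EGFR in untreated libraries.

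Ratios of genes within a library do not depend on how libraries are scaled to each other. EGFR per ERBB3, by FPKM, was 0.408, 0.426 and 0.458 in trastuzumab libraries, against 0.976, 0.989 and 0.963 in untreated libraries. The RNAs of the 2 receptors were thus near parity by FPKM in untreated cells, and that of EGFR was the lower one under trastuzumab. This parity rests on the gene lengths behind the FPKM values. By counts, with no scaling for length, the mean log2 ratio of EGFR to ERBB3 was 0.47 in untreated and -0.72 in trastuzumab libraries. EGFR per ERBB2 was 0.0106, 0.0103 and 0.0114 under trastuzumab, against 0.0306, 0.0289 and 0.0294 in untreated libraries. On counts, the log2 ratio of EGFR to ERBB2 differed by -1.46 under trastuzumab, that of EGFR to ERBB3 differed by -1.18 and that of ERBB3 to ERBB2 by -0.28. ERRFI1 per EGFR was 1.12, 1.13 and 1.13 by FPKM under trastuzumab, against 0.598, 0.569 and 0.565 in untreated libraries, a log2 difference of 0.97 on counts. The log2 ratio of LRIG1 to ERBB2 differed least, by 0.085. The groups did not overlap in any of the 7 ratios computed, which in an exact two-sided permutation test of 3 against 3 libraries gives p = 0.1, the smallest it can reach, and 0.1 after adjustment over the 7.

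**Figure D2:**
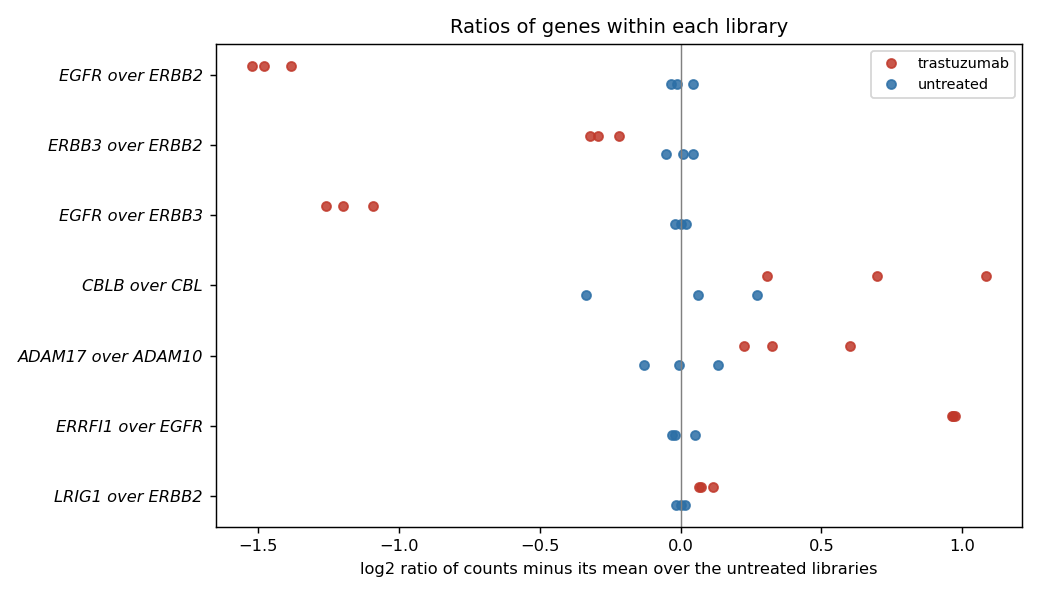
Log2 ratio of counts of 2 genes in each library, minus the mean of that ratio over the untreated libraries (horizontal axis), for the 3 trastuzumab (red) and 3 untreated (blue) libraries. EGFR is lower relative to ERBB2 and ERBB3 in the trastuzumab libraries, by -1.46 and -1.18, and ERRFI1 is higher relative to EGFR by 0.97.

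Among the proteins that restrain receptors, LRIG1 rose and ERRFI1 did not pass the test. LRIG1 (ENSG00000144749, chromosome 3, 66378797 to 66501263) stood at 65.9, 68.5 and 67.7 CPM under trastuzumab, against 43.9, 46.9 and 45.9 CPM in untreated libraries. All trastuzumab libraries were higher, by 1.48-fold (log2 fold change 0.56 ± 0.058, edgeR adjusted p = 5.13e-07), and the corrected value was 0.49. Its transcripts are 54.0% GC, and among tested genes with 52.4 to 58.3% GC the median was 0.23 and 38.9% were called higher. ERRFI1 (ENSG00000116285, chromosome 1, 8004404 to 8026308), also known as MIG6 and induced by receptor signalling, stood at 53.0, 53.4 and 56.7 CPM under trastuzumab, against 55.9, 54.3 and 54.2 CPM in untreated libraries. The groups overlapped, and the log2 fold change of -0.012 (edgeR adjusted p = 0.894) had a 95% interval of -0.14 to 0.11. A change in ERRFI1 as large as that of LRIG1 lies outside this interval. The overlapping genes SLC25A26, at 14.5 CPM under trastuzumab and 11.2 CPM in untreated libraries, and an antisense RNA lie on the other strand of LRIG1 and ERRFI1.

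The 2 ubiquitin ligases differed in level and in change. CBL (ENSG00000110395, chromosome 11, 119206276 to 119313926) stood at 55.4, 47.9 and 52.9 CPM under trastuzumab, against 89.9, 92.4 and 88.6 CPM in untreated libraries. It fell in every trastuzumab library (log2 fold change -0.79 ± 0.060, edgeR adjusted p = 1.87e-08), and the corrected value was -0.55 ± 0.048. Its paralog CBLB (ENSG00000114423, chromosome 3, 105655461 to 105869552) was much scarcer, at 0.257 ± 0.0451 FPKM under trastuzumab and 0.287 ± 0.0513 FPKM in untreated libraries, where CBL had 3.81 ± 0.289 and 6.94 ± 0.206 FPKM (SD, n = 3). CBLB had 2.97, 4.40 and 3.72 CPM under trastuzumab and 4.07, 3.18 and 4.63 CPM in untreated libraries, with overlapping groups. Its log2 fold change of -0.099 ± 0.20 (edgeR adjusted p = 0.726) had a wide 95% interval of -0.52 to 0.32, and was 0.34 in the corrected fit without a call. The log2 ratio of CBLB to CBL was higher by 0.70 under trastuzumab.

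The calls of both sheddases changed with the correction for GC content and length. ADAM10 (ENSG00000137845, chromosome 15, 58588807 to 58749978) stood at 61.4, 54.5 and 52.5 CPM under trastuzumab, against 85.5, 81.1 and 76.0 CPM in untreated libraries. The groups did not overlap and ADAM10 fell (log2 fold change -0.53 ± 0.066, edgeR adjusted p = 4.79e-06). Its transcripts are 40.5% GC, and in the 20% of genes with the lowest GC content the median was -0.47 and 56.9% were called lower. In the corrected fit the call was lost, at 0.0083 ± 0.053 (edgeR adjusted p = 0.925), while with GC content alone removed it was -0.17 and still called lower (adjusted p = 0.0182). ADAM17 (ENSG00000151694, chromosome 2, 9488486 to 9556732), the main sheddase of EGFR ligands, stood at 27.7, 26.4 and 30.9 CPM under trastuzumab, against 33.0, 28.7 and 32.3 CPM in untreated libraries. These groups overlapped, and the log2 fold change of -0.14 ± 0.082 did not pass (edgeR adjusted p = 0.167, 95% interval -0.32 to 0.030). At 41.6% GC ADAM17 lies in the same group of genes, and the corrected fit called it higher, at 0.31 ± 0.075 (adjusted p = 0.00354). With GC content alone removed it was 0.18 and not called (adjusted p = 0.071). ADAM17 was higher relative to ADAM10 in both fits, with a log2 difference in their ratio of 0.38 without and 0.30 with the correction. Its locus overlaps IAH1, at 26.0 CPM under trastuzumab and 23.1 CPM in untreated libraries, on the other strand.

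**Figure D3:**
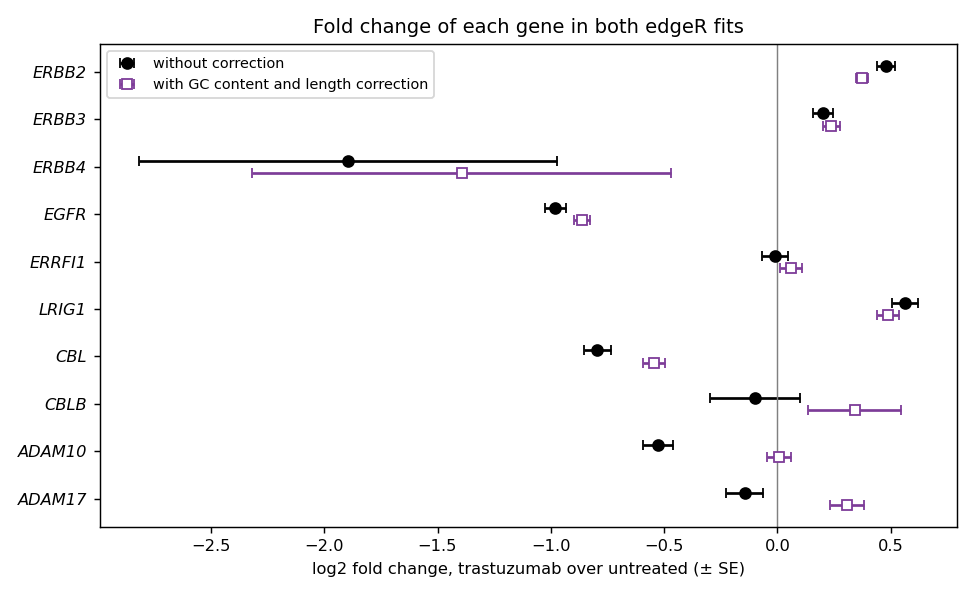
Log2 fold change of trastuzumab over untreated (horizontal axis, bars ± SE) for the 10 genes without correction (black circles) and with the correction for GC content and length (open squares). EGFR (-0.98 and -0.86) and CBL (-0.79 and -0.55) lie below 0 in both fits, whereas ADAM10 moves to 0.0083 and ADAM17 to 0.31 with the correction.

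By transcript GC content the 10 genes ran from ERBB4 (40.2%), ADAM10, ADAM17 and CBLB (42.6%) over ERRFI1 (46.7%), CBL (47.3%), EGFR and ERBB3 (52.0%) to LRIG1 (54.0%) and ERBB2. The 2 genes with the highest GC content were among those that rose, and none of the 4 with the lowest GC content rose without the correction. Among the 6 called genes, EGFR and CBL stood furthest from the median of their group by GC content, at -0.98 and -0.79 where that median was -0.0036. CBL lies at the low edge of that group, which runs from 47.1 to 52.4% GC, and the next group below had a median of -0.25. The correction also removes any true change that goes with GC content or length, so the 2 fits are given side by side.

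**Figure D4:**
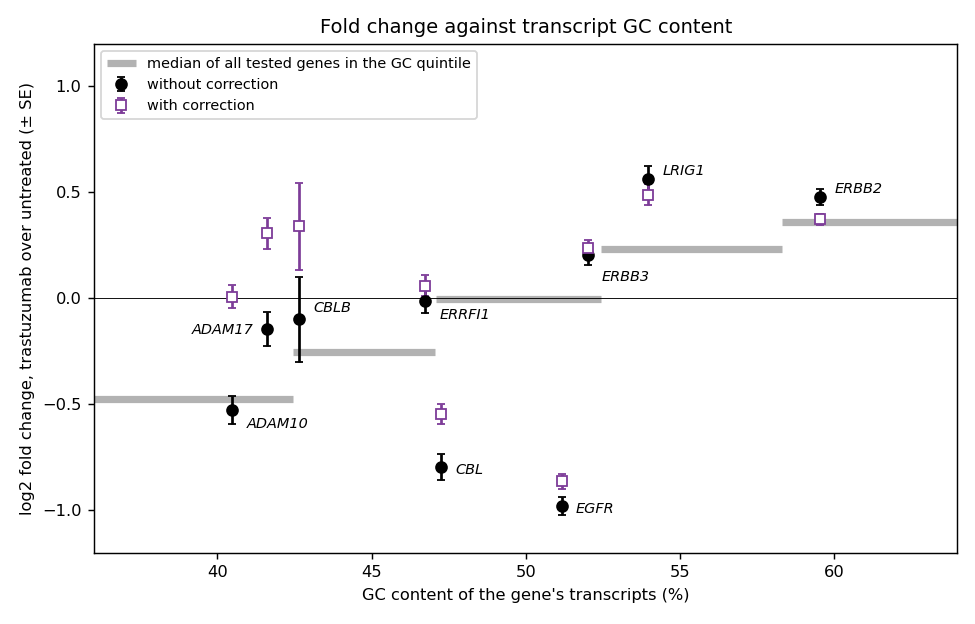
Log2 fold change (vertical axis, ± SE) against the GC content of the transcripts (horizontal axis, %) for 9 of the genes, without (black circles) and with (open squares) the correction; ERBB4 is left out for its large error. Grey bars give the median of all tested genes in each of 5 equal groups by GC content, from -0.47 in the lowest to 0.36 in the highest, and EGFR and CBL lie well below them.

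By the rule for likeness, the genes whose centred log2 CPM over the 6 libraries came closest to that of ERBB2, among 8695 others of at least 10 CPM, were MLPH, EXOC3 and STUB1. Each had a root-mean-square difference of 0.0104 on the log2 scale. For EGFR they were TET2 (0.0307), CKAP5 (0.0334) and FASN (0.038). The measure rests on the same 6 libraries and the same step between groups, so the way they were picked gives these genes similar log2 fold changes. In the corrected fit the values were 0.35 for MLPH, 0.36 for EXOC3 and 0.13 for STUB1, beside 0.37 for ERBB2. For TET2, CKAP5 and FASN they were -0.52, -0.67 and -1.10, beside -0.86 for EGFR.

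Other genes of the receptor pathway were read from 8 lists with 111 entries, of which 103 were tested. Of these 34 rose, 36 fell and 33 did not pass, beside 23.9% and 25.4% of all tested genes. In the corrected fit 27 rose and 25 fell, where 19.9% and 18.9% of all genes did. The shares given with each list below are to be read beside these shares of all genes, with a limit. All tested genes include scarce ones, which were called less often. The main fit called 8808 of 17854 genes, and a fit kept to those averaging 1 CPM or above called 8578 of 13212. The shares of all genes are therefore a low standard for lists of mostly abundant genes. No excess of calls in the lists is read from them. Genes named below are among the largest called changes of at least 1 CPM in each list.

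Among ligands, 2 of 7 tested rose and 2 fell (28.6% each), and 1 rose (14.3%) and 2 fell (28.6%) in the corrected fit. NRG2, a neuregulin, had 3.33 ± 0.531 CPM under trastuzumab and 1.86 ± 0.209 CPM in untreated libraries, a rise (log2 fold change 0.84) whose call was lost in the corrected fit. EGF, the ligand of EGFR, rose to 45.3 ± 2.66 CPM under trastuzumab, against 27.5 ± 0.267 CPM in untreated libraries. EPGN, epigen, fell to 1.51 ± 0.69 CPM under trastuzumab, against 3.21 ± 0.514 CPM in untreated libraries. TGFA, EREG, NRG1 and NRG3 were too low to test.

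Of 21 tested sheddases, sheddase partners and inhibitors, 11 rose and 3 fell, with a median log2 fold change of 0.31. Higher calls were 52.4% of this list, beside 23.9% of all tested genes, and lower calls 14.3%, beside 25.4%. The median GC content of the list was 54.0%, and of tested genes with 52.4 to 58.3% GC, 38.9% were called higher. In the corrected fit 7 rose (33.3%, beside 19.9% of all genes) and 2 fell (9.52%, beside 18.9%), with a median of 0.29. TIMP1, an inhibitor of metalloproteases that blocks ADAM10, had 5.12 ± 0.556 CPM under trastuzumab and 1.25 ± 0.307 CPM in untreated libraries (log2 fold change 2.03 ± 0.22, edgeR adjusted p = 8.68e-07). TIMP3, the inhibitor of ADAM17, had 11.2 ± 1.18 CPM under trastuzumab and 4.50 ± 0.281 CPM in untreated libraries (1.32 ± 0.13). TSPAN15, a tetraspanin that carries ADAM10 to the surface, had 232, 244 and 246 CPM under trastuzumab, against 116, 133 and 117 CPM in untreated libraries (log2 fold change 0.98 ± 0.055). All 3 kept their call in the corrected fit, at 1.72, 1.32 and 0.70. TIMP2 fell (log2 fold change -0.43), also in the corrected fit (-0.51).

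Of 14 other ubiquitin ligases and deubiquitinases, 2 rose (14.3%) and 6 fell (42.9%), whereas 6 rose (42.9%) and 3 fell (21.4%) in the corrected fit. STUB1, a ligase that can mark chaperone-bound HER2 for degradation, had 176 ± 5.67 CPM under trastuzumab and 127 ± 5.52 CPM in untreated libraries, with a log2 fold change of 0.47 and 0.13 with correction. USP2, a deubiquitinase, fell to 1.84 ± 0.251 CPM under trastuzumab, against 4.21 ± 0.236 CPM in untreated libraries. Of 18 endocytic and sorting proteins, 4 rose (22.2%) and 7 fell (38.9%) in the first fit. In the corrected fit 2 rose (11.1%) and 7 fell (38.9%). CLTC, the clathrin heavy chain, had 160, 140 and 156 CPM under trastuzumab, against 327, 323 and 291 CPM in untreated libraries (log2 fold change -1.05 ± 0.058, edgeR adjusted p = 1.05e-09, corrected -0.58). SH3KBP1 and CD2AP, the adaptors that link CBL to endocytosis, fell as well (-0.73 and -0.70, corrected -0.64 and -0.22), and EPN1, an epsin, rose (0.55).

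Of 9 phosphatases acting on the receptors, 3 rose (33.3%) and 5 fell (55.6%), and 1 rose (11.1%) and 4 fell (44.4%) in the corrected fit. PTPRK (-0.83) led the falls and PTPN6 (0.35) the rises, and the call of PTPN6 was lost in the corrected fit. Of 11 other restraining proteins, 4 rose and 4 fell (36.4% each), and 4 rose (36.4%) and 1 fell (9.09%) in the corrected fit. SPRY4, a Sprouty protein that limits signalling below receptors, had 44.6, 44.4 and 44.0 CPM under trastuzumab, against 23.3, 26.6 and 20.1 CPM in untreated libraries (log2 fold change 0.92 ± 0.089, edgeR adjusted p = 2.71e-07, corrected 0.85). SOCS5, which lowers EGFR levels, fell (-0.78).

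Of 15 adaptors and first effectors, 5 rose and 5 fell (33.3% each), and 4 rose (26.7%) and 3 fell (20%) in the corrected fit. GRB7, which lies beside ERBB2 and binds HER2, had 576 ± 15.4 CPM under trastuzumab and 384 ± 7.93 CPM in untreated libraries (log2 fold change 0.58 ± 0.041, corrected 0.28). GAB1, a docking protein below EGFR, fell to 12.4 ± 2.85 CPM under trastuzumab, against 26.0 ± 1.80 CPM in untreated libraries. Of 8 chaperones and membrane partners of HER2, 3 rose (37.5%) and 4 fell (50%). In the corrected fit 2 rose (25%) and 3 fell (37.5%). HSP90AA1, a chaperone that HER2 needs for stability, had 470 ± 27.1 CPM under trastuzumab and 864 ± 86.1 CPM in untreated libraries (log2 fold change -0.88, corrected -0.70). MUC4, a mucin that binds HER2, rose at a low level (1.27 ± 0.25 CPM under trastuzumab and 0.639 ± 0.182 CPM in untreated libraries), a call lost without either trastuzumab replicate 2 (edgeR adjusted p = 0.0727) or trastuzumab replicate 3 (0.11) and without untreated replicate 3 (0.096).

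**Figure D5:**
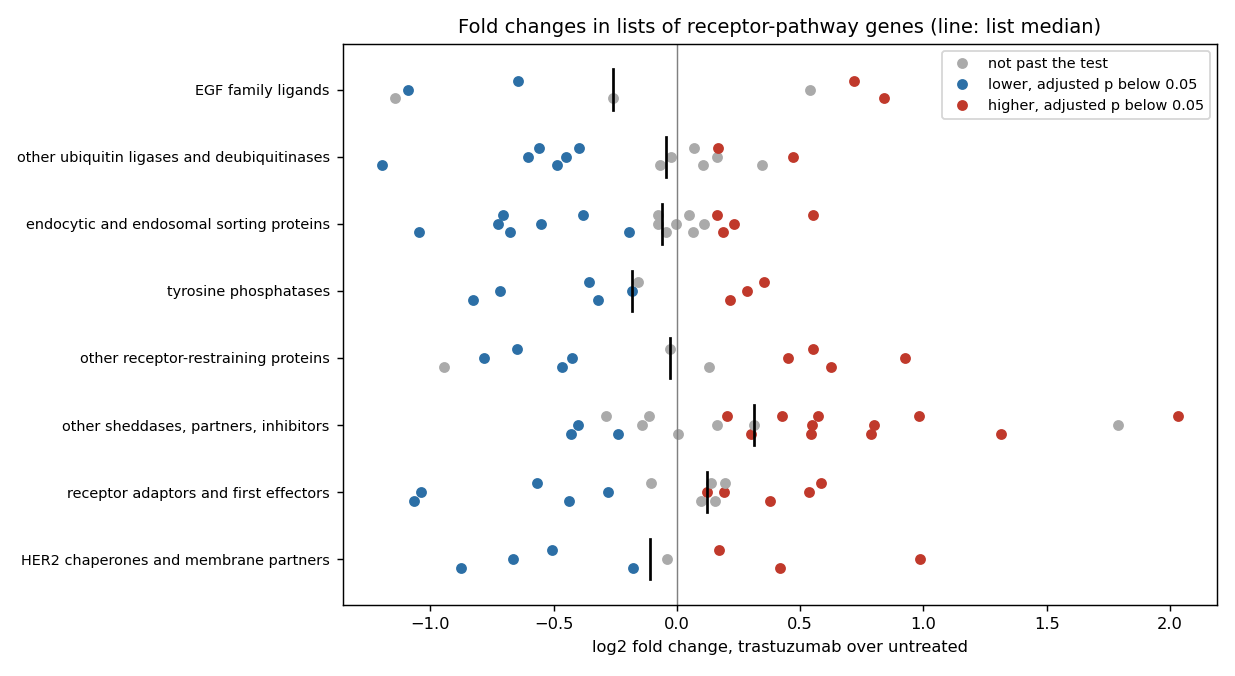
Log2 fold change of trastuzumab over untreated (horizontal axis) for each tested gene of the 8 pathway lists, coloured by call (red higher, blue lower, grey not past the test), with the list median as a black line. Medians run from -0.26 for the ligands to 0.31 for the sheddases, their partners and inhibitors, and genes of every list lie on both sides of 0.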

How the data were processed

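RNA was sequenced from 6 SKBR3 libraries, 3 per group by the treatment label. Strand-specific libraries were made from column-purified total RNA, per the labels' protocols. The authors deposited raw counts per Ensembl gene, whole numbers with no normalization, and FPKM values, scaled by gene length and library size, for 33686 of the 60612 genes. STAR 2.4.2a and the hg38 build are named, per the submitters' processing notes. Counter, strand setting and filters: not given in the sources used here. Symbols came from a gene name table, and positions, GC content and exonic length from GENCODE 29.

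Counts were tested with edgeR 4.0.16 (R 4.3.3): TMM scaling, filterByExpr, robust quasi-likelihood F test, no covariate. The corrected fit removes a spline trend (5 degrees of freedom each) on GC content and log length per library, as offsets, over 17649 genes. Intervals are 95% from the fit's moderated degrees of freedom. Ratios were tested by exact permutation. limma 3.58.1 (voom, and log2(FPKM + 1) or log2(FPKM + 0.1)) and DESeq2 1.42.0 were alternatives. The edgeR step was tested on simulated data, with 50 genes changed at each size. It recovered 34% of 1.25-fold, 58% of 1.5-fold, 84% of 2-fold and 98% of 4-fold changes. These were the only changed genes among 17854, whereas 49.3% of tested genes were called in the data. The adjusted p was therefore harder to pass in the simulation, and the rates do not give the power of the fits reported here. Small changes can still go without a call. Every pair of replicates differed by more than sampling noise (chi-square per degree of freedom 19.1 to 29.2).

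The members and lists were chosen with earlier results of these data known. All members are named. From each list the rule takes up to 3 higher and 3 lower called genes, largest change first, the group with more RNA averaging 1 CPM or above, of which the leading ones are given. The rule also takes the 3 protein-coding genes most like ERBB2 and most like EGFR.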

Additional observations from a re-analysis of the deposited data

How the results depend on the processing

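The calls and directions of ERBB2, ERBB3, EGFR, LRIG1 and CBL held in every alternative run for each, and 6 of the 10 genes were called in every alternative, though not always the same 6. ADAM10 had a log2 fold change of 0.0083 with correction for GC content and length and 0.0061 with the replicate block added, without a call. ADAM17 was called higher in both (0.31 each) and stood at 0.18 with correction for GC content alone, chosen after seeing the data. CBLB, never called, reversed to 0.34, 0.33 and 0.19 in those 3 fits. ERRFI1, never called, reversed to 0.060, 0.060 and 0.096 there and to 0.041 with upper quartile scaling. Without 1 replicate, ERRFI1 ranged from -0.043 to 0.0055 and CBLB from -0.24 to 0.034. ADAM9 turned to 0.044, 0.046 and 0.0073 and ERBIN to 0.033 and 0.031 in the corrected fits, and AP2A1 (-0.092) and HGS (-0.058) with GC content alone. The cause of each was not tested. Of pathway genes, 22 rather than 34 rose in each of the 3 limma fits on FPKM, and 23 rather than 36 fell with correction and the replicate block together. Same-numbered replicates correlated at 0.0382, 0.047 and 0.0468 in their deviations from group means, too little to pair them, although each number correlated best with itself. The replicate block alone gave 8653 changed genes instead of 8808 and 6 of the 10 members. In the ratios, an exact sign-flip test over the replicate block gives p = 0.25, the smallest that 3 pairs allow. With correction the log2 difference of EGFR to ERBB2 was -1.24 and that of ERBB3 to ERBB2 -0.13. HBEGF, SOCS3, MUC4, OTUD7B and PTPN9 lost their call without at least 1 of the libraries. ERBB4 and CBLB had the lowest counts of the 10 genes and the widest intervals.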

Other observations

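Markers of other cell types were read only to check the cell line, and some stood at levels that differed between the groups. The genes named here were chosen after their values were seen. CDH5, the endothelial cadherin, had 75.2, 80.3 and 82.4 CPM in trastuzumab replicates 1 to 3, against 26.3, 25.2 and 27.7 CPM in untreated replicates (log2 fold change 1.59 ± 0.065, edgeR adjusted p = 2.32e-11), while PECAM1 reached at most 0.224 CPM in any library. CD68, a lysosomal protein used as a macrophage marker, had 40.9, 46.9 and 41.3 CPM under trastuzumab, against 14.9, 13.2 and 16.2 CPM in untreated libraries (1.54 ± 0.089, edgeR adjusted p = 1.03e-09), while PTPRC reached at most 0.31 CPM.

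Of the 3 basal markers, the keratins KRT5 and KRT14 differed among the trastuzumab libraries, and TP63 was lower under trastuzumab. TP63, a basal transcription factor, had 0.257, 0.657 and 0.412 CPM in trastuzumab replicates 1 to 3, against 1.47, 0.475 and 1.64 CPM in untreated replicates (log2 fold change -1.43 ± 0.48, edgeR adjusted p = 0.0208), with overlapping groups. KRT5 had 0.614, 9.07 and 8.27 CPM in trastuzumab replicates 1 to 3, against 1.27, 1.03 and 0.688 CPM in untreated replicates. KRT14 had 0.0571, 7.53 and 7.72 CPM under trastuzumab, against 0, 0.0951 and 0.234 CPM in untreated libraries. Replicate 1 of the trastuzumab group thus lay with the untreated libraries for both genes, and neither keratin passed the test (edgeR adjusted p = 0.133 for KRT5 and 0.097 for KRT14). ERBB4 had 0 counts in that library, and the 6 called receptor and regulator genes kept their calls without it.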
